A study of Rattus norvegicus with 36 samples.

Results

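A list of 40 gene symbols of ribosome biogenesis, the pathway that makes the cell's ribosomes, was followed across 36 rat mammary gland arrays. The genes were selected by symbol, and the list was drawn up with earlier results of these same arrays known. Which measured values counted in that choice is not recorded, so the counts below describe these genes and are not independent evidence of a direction. Of the 40 symbols, 38 had a probe set of their own, with 51 probe sets in all, and these 38 stand beside 11504 genes tested on the arrays. All 38 passed the filter on low values through the probe set of highest mean, which represents each gene. Npm1, the nucleolar chaperone nucleophosmin, is given no value because its probe sets are also assigned to a related pseudogene. Npm3, a relative of it, had no probe set in the annotation used.

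Ribosomes are built mainly in the nucleolus. RNA polymerase I transcribes a long precursor rRNA, small nucleolar RNA-protein particles (snoRNPs) modify it, and a long series of assembly factors cuts, folds and packs it into the small and the large subunit before export to the cytoplasm. Many of the genes are known targets of the transcription factor Myc, and in the mammary gland the pathway is known to be active when epithelium grows or secretes.

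The study crossed 2 inbred strains, Cop and F344. Rats aged 55 days received N-nitrosomethylurea (NMU), an alkylating mammary carcinogen, or its saline vehicle, and glands were taken 6 h, 1 d or 30 d later. The 6 groups of each strain (vehicle and NMU at each of the 3 times) held 3 arrays each. All samples were mammary gland, with no genetic modification named. The sources used here do not give the NMU dose or the number of animals behind an array. Replicates are labelled biological without further detail, so p-values measure the spread between arrays, which may be partly technical. F344 vehicle arrays 1 and 2 at 1 d differed least among replicates, by a root mean square log2 difference of 0.163.

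The values are log2 expression values per probe set, with array medians between 5.66 and 5.77. Of the marker lists for the gland, 16 of 17 luminal epithelial genes and 12 of 13 adipocyte genes had a probe set of their own. All of these passed the filter on low values. All 18 skeletal muscle markers passed as well, and their level differed widely between arrays. For each list, an array's score averages how far the listed genes lie from their own means over the 36 arrays. In F344 vehicle glands at 30 d the muscle score was -4.31, -0.49 and -3.26, and in Cop NMU glands at 30 d the lymphocyte (T and NK cell) score was 0.57, -1.72 and -1.66. F344 vehicle arrays 1 and 3 and Cop NMU arrays 2 and 3 at 30 d thus stood apart from the remaining array of their group. In the muscle score Cop NMU array 1 at 30 d was itself extreme, at -4.04 against 1.61 and 0.64. The Cop vehicle arrays at 30 d had muscle scores of -1.04 to -0.31. In whole tissue, fewer cells of a type and less RNA per cell cannot be told apart.

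Promoter sequences from RefSeq (rat build GRCr8, from 250 bases before to 50 after the annotated start) were matched for 37 of the 40 symbols. The E-box CACGTG, the sequence that Myc and its relatives are known to bind, was present on either strand in 14 of 37 (37.8%), against 8.91% of 11734 promoters of genes on the array and 6.65% of all 27457. The ETS core CCGGAAG or its reverse complement CTTCCGG was also present in 14 of 37 (37.8%), against 15.1% and 9.22%. These motifs cannot overlap each other. A match describes the letters in the window and is neither a shown binding site nor a cause. Stretches of 60 bases before the start are shown for genes described below, 5′ to 3′ on the gene's strand, with the motif in capitals. The E-box lies in the following promoters, of Ran (chr12:33314448-33314507, minus strand), Pes1 (chr14:83074269-83074328, plus strand), Gnl3 (chr16:6219783-6219842, minus strand) and Dkc1 (chrX:157751440-157751499, plus strand).
Ran: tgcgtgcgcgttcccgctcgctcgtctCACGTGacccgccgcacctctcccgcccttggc
Pes1: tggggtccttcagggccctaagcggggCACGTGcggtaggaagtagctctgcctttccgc
Gnl3: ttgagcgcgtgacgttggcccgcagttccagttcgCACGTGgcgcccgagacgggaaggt
Dkc1: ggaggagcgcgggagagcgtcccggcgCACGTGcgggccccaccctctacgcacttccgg
The ETS core lies in those of Fbl (chr1:92597315-92597374, plus strand), Gar1 (chr2:221056769-221056828, minus strand), Nhp2 (chr10:36377960-36378019, plus strand) and Nop58 (chr9:68614973-68615032, plus strand). In Gar1 copies on the 2 strands overlap.
Fbl: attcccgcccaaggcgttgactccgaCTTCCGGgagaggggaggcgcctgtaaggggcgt
Gar1: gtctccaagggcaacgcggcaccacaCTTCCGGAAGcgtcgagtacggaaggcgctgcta
Nhp2: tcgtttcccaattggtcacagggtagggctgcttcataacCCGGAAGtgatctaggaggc
Nop58: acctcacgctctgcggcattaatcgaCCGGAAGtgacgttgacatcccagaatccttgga

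The lowest levels of the pathway were in NMU glands at 30 d. Of the 38 genes, 19 had their lowest group mean in Cop NMU glands at 30 d and 12 in F344 NMU glands at 30 d. The highest mean fell in Cop vehicle glands at 1 d for 12 genes, in Cop vehicle glands at 6 h for 9 and in F344 NMU glands at 6 h for 9. The share of all genes with their lowest or highest mean in these groups is not given, so these counts have no background. The range of a gene's 12 group means ran from 0.28 (log2) to 1.36, with a median of 0.76, against a within-group SD of 0.084 to 0.302. The member score was 0.09, 0.11 and 0.00 on the F344 vehicle arrays at 30 d and -0.41, -0.41 and -0.12 on the NMU arrays. In Cop at 30 d it was 0.05, -0.03 and 0.00 with vehicle and -0.21, -0.41 and -0.49 with NMU. The groups did not overlap in either strain. The within-group SD of the score was 0.0894 pooled over all groups. It was larger in the NMU glands at 30 d, 0.164 in F344 and 0.143 in Cop.

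**Figure D1:**
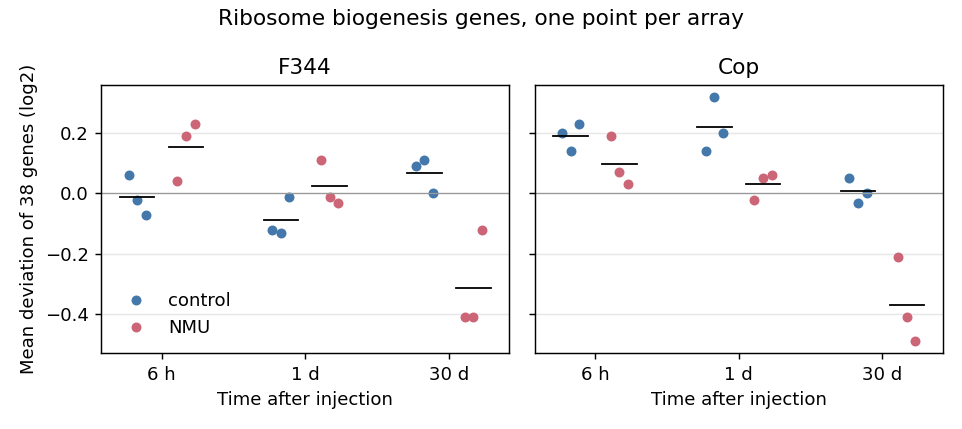
Mean deviation (log2) of the 38 genes from their own mean over all arrays, one point per array, in F344 (left) and Cop (right) by time after injection, with vehicle control in blue and NMU in red; lines are group means. The NMU arrays at 30 d lie between -0.49 and -0.12, below every other array of their strain except that F344 vehicle arrays at 1 d reach -0.13.

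At 30 d after NMU, 10 of the 38 genes were lower in F344 and 17 in Cop at a limma adjusted p under 0.05 (Benjamini-Hochberg over all probe sets tested), and no gene was higher in either strain. Over all genes, 3.65% were called lower in F344 and 6.36% in Cop. The median change of the 38 was -0.37 in F344 and -0.36 in Cop on the log2 scale, against -0.047 and -0.025 over all genes, and 37 and 36 of 38 changes were below 0. Every NMU array was below every vehicle array for 19 of 38 genes in F344 (15.1% of all genes) and for 23 of 38 in Cop (10.5% of all genes). These calls rest on a spread shared over all 36 arrays: fitted on the 6 compared arrays alone, limma called 0 members in either strain, with the medians as above. Every SE given below rests on the same shared spread. A gene's SE is therefore equal in both strains and is not the spread of the compared arrays. Called lower in both strains were Nop56, Fbl, Nhp2, Gar1, Dimt1, Mrto4, Ran and Alyref.

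The proteins of the box H/ACA snoRNPs, which convert uridine to pseudouridine in rRNA, were unequal among themselves. Nhp2, a core protein of these particles, measured 9.45, 9.13 and 9.62 (log2) on the F344 vehicle arrays at 30 d and 8.47, 8.60 and 8.81 on the NMU arrays. In Cop it measured 8.99, 9.49 and 8.98 with vehicle and 8.39, 8.35 and 8.32 with NMU. All 6 NMU arrays were below all 6 vehicle arrays, a change of -0.77 ± 0.13 (SE, n = 3 per group, limma adjusted p = 0.00296), or 1.71-fold lower, in F344 and -0.80 ± 0.13 (adjusted p = 0.000641), or 1.74-fold lower, in Cop.

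Gar1, another core protein of the same particle, fell by 0.71 ± 0.133 in F344, from 8.21, 8.30 and 8.12 to 7.30, 7.41 and 7.79 (limma adjusted p = 0.00493). In Cop it fell by 0.53 ± 0.133, from 8.07, 8.08 and 7.96 to 7.73, 7.47 and 7.32 (limma adjusted p = 0.0127). The groups did not overlap in either strain. Nop10, the smallest core protein, was called in Cop (-0.35) and not in F344 (-0.33, adjusted p = 0.081). Dkc1, the pseudouridine synthase itself, was called in neither strain. Its F344 values were 8.71, 8.62 and 8.65 with vehicle and 8.33, 8.39 and 8.46 with NMU, and its Cop values 8.74, 8.53 and 8.49 against 8.67, 8.62 and 8.57, so that the groups were apart in F344 (-0.27, adjusted p = 0.285) and overlapped in Cop (0.03).

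The box C/D snoRNPs methylate rRNA. Fbl, fibrillarin, is their methyltransferase, and its F344 values at 30 d were 9.51, 9.50 and 9.48 with vehicle and 8.73, 8.97 and 9.14 with NMU. In Cop they were 9.40, 9.75 and 9.40 against 9.04, 8.76 and 8.27. The change was -0.55 ± 0.149 in F344 (limma adjusted p = 0.0356) and -0.83 ± 0.149 in Cop (adjusted p = 0.00138), with no overlap in either strain. The core proteins Nop56 and Nop58 were both called lower in F344 (-0.52 and -0.51). In Cop, Nop56 was called (-0.44) and Nop58 was not (-0.18, adjusted p = 0.437). A further probe set of Nop56 gave -0.70 in F344 and -0.78 in Cop, both called.

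Polr1b, a core subunit of RNA polymerase I, had -0.60 in F344 (limma adjusted p = 0.0531) and -0.59 in Cop (adjusted p = 0.0314), with the call in Cop alone. Of the nucleolar proteins, the RNA helicase Ddx21 had -0.69 in F344 (adjusted p = 0.0596) and -0.71 in Cop (adjusted p = 0.0288), where another probe set gave -0.62 (adjusted p = 0.0516). Gnl3, nucleostemin, had -0.46 and -0.36, and Ncl, nucleolin, -0.20 and -0.24, with no call. For Nolc1, a chaperone of snoRNPs, the probe sets disagreed. The brightest gave -0.14 in F344 and -0.13 in Cop, while another gave -0.61 (adjusted p = 0.0332) and -0.57 (adjusted p = 0.0243).

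Of 13 factors of the small subunit, 1 was called lower in F344 and 4 in Cop, with medians of -0.26 and -0.29. Dimt1, which dimethylates the small subunit rRNA, was the F344 call and was also called in Cop. Its F344 values were 7.16, 7.03 and 7.03 with vehicle and 6.31, 6.39 and 6.55 with NMU, a change of -0.66 ± 0.111 (limma adjusted p = 0.00296). Its Cop values were 6.83, 6.75 and 7.14 against 6.27, 6.23 and 6.08, a change of -0.71 ± 0.111 (adjusted p = 0.000558), without overlap in either strain. Another probe set of Dimt1 also gave -0.71 in Cop and was not called (limma adjusted p = 0.0786).

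Rcl1, a factor of early rRNA cleavage, measured 8.49, 8.40 and 8.73 in Cop vehicle glands and 8.22, 7.85 and 7.32 in Cop NMU glands. The change was -0.74 ± 0.154 in Cop (limma adjusted p = 0.00386) and -0.28 ± 0.154 in F344 (adjusted p = 0.335). The other Cop calls were Emg1, an rRNA methyltransferase (-0.59), and Imp4, a protein of the early processing particle (-0.37), although another probe set of Imp4 gave -0.04 in Cop (limma adjusted p = 0.899). At the other end, Ltv1, a factor of late small subunit assembly, had 0.01 in F344 and 0.02 in Cop, and the endonuclease Nob1, which makes the last cut of the small subunit rRNA, had -0.05 and -0.08. Wdr75, a factor of early precursor processing, had -0.26 and -0.21 by its brightest probe set and -0.72 and -0.78, both called, by another.

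Of 11 factors of the large subunit, 2 were called lower in F344 and 4 in Cop, with medians of -0.36 and -0.37. Mrto4, which helps assemble the ribosomal stalk, was called in both (-0.52 and -0.48), although its other probe set gave -0.27 and -0.13 and was not called. Bop1, which acts with Pes1 and Wdr12 in processing the large subunit rRNA, fell by 0.42 ± 0.0965 in F344 (limma adjusted p = 0.0153), from 7.76, 7.82 and 7.64 to 7.19, 7.31 and 7.46, without overlap. In Cop it had -0.22 (adjusted p = 0.137). Its partner Wdr12 was called in Cop (-0.39) and had -0.36 in F344, while Pes1 was called in neither (-0.05 and -0.28). Nop16, another nucleolar factor of this subunit, fell by 0.58 ± 0.116 in Cop (limma adjusted p = 0.00301), from 9.23, 9.18 and 9.16 to 8.61, 8.84 and 8.38, and Nip7, which acts in the same subunit's maturation, had -0.61 in F344 (adjusted p = 0.104) and -0.66 in Cop (adjusted p = 0.0425).

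The 2 genes grouped under nuclear export were called in both strains. Ran, the GTPase that drives transport through the nuclear pore, measured 11.61, 11.24 and 11.62 with vehicle and 10.70, 10.69 and 11.01 with NMU in F344. In Cop it measured 11.32, 11.63 and 11.33 against 10.82, 10.64 and 10.71. The change was -0.69 ± 0.11 in F344 (limma adjusted p = 0.00177) and -0.71 ± 0.11 in Cop (adjusted p = 0.000558), with no overlap. Alyref, an adaptor of mRNA export that is not specific to ribosomes, fell by 0.74 ± 0.102 in F344, from 9.59, 9.35 and 9.43 to 8.55, 8.66 and 8.94 (limma adjusted p = 0.00052). In Cop it fell by 0.39 ± 0.102, from 9.33, 9.45 and 9.31 to 9.11, 8.96 and 8.84 (limma adjusted p = 0.0156).

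**Figure D2:**
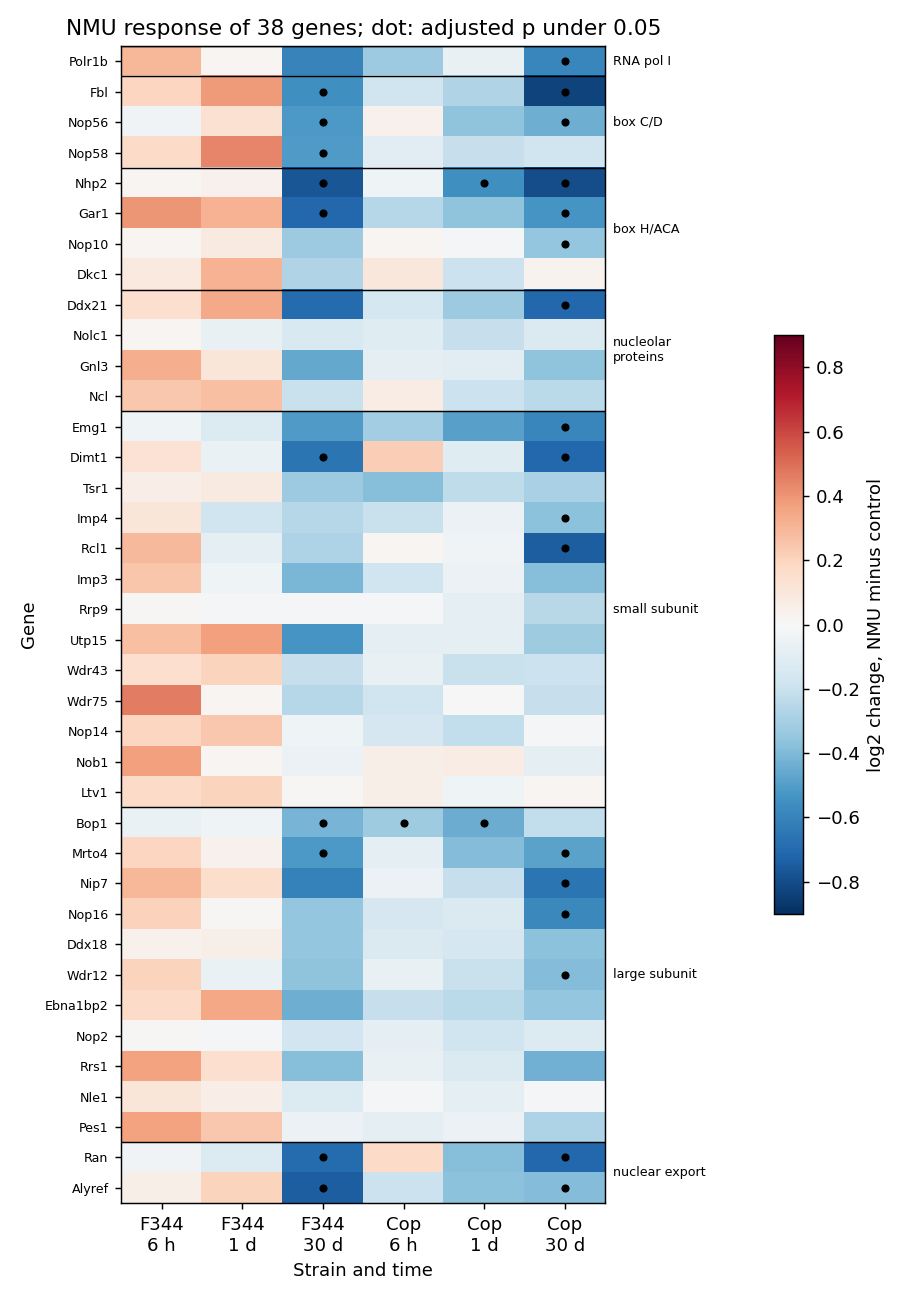
Change after NMU (log2, NMU minus control) of the 38 genes in each strain at each time, grouped by role, from blue (lower) to red (higher); a dot marks a limma adjusted p under 0.05. Dots are concentrated in the 30 d columns, with 10 in F344 and 17 in Cop, beside 1 in Cop at 6 h and 2 in Cop at 1 d. The dots come from the fit without a replicate block. With that block no member was called in Cop at 6 h or 1 d.

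**Figure D3:**
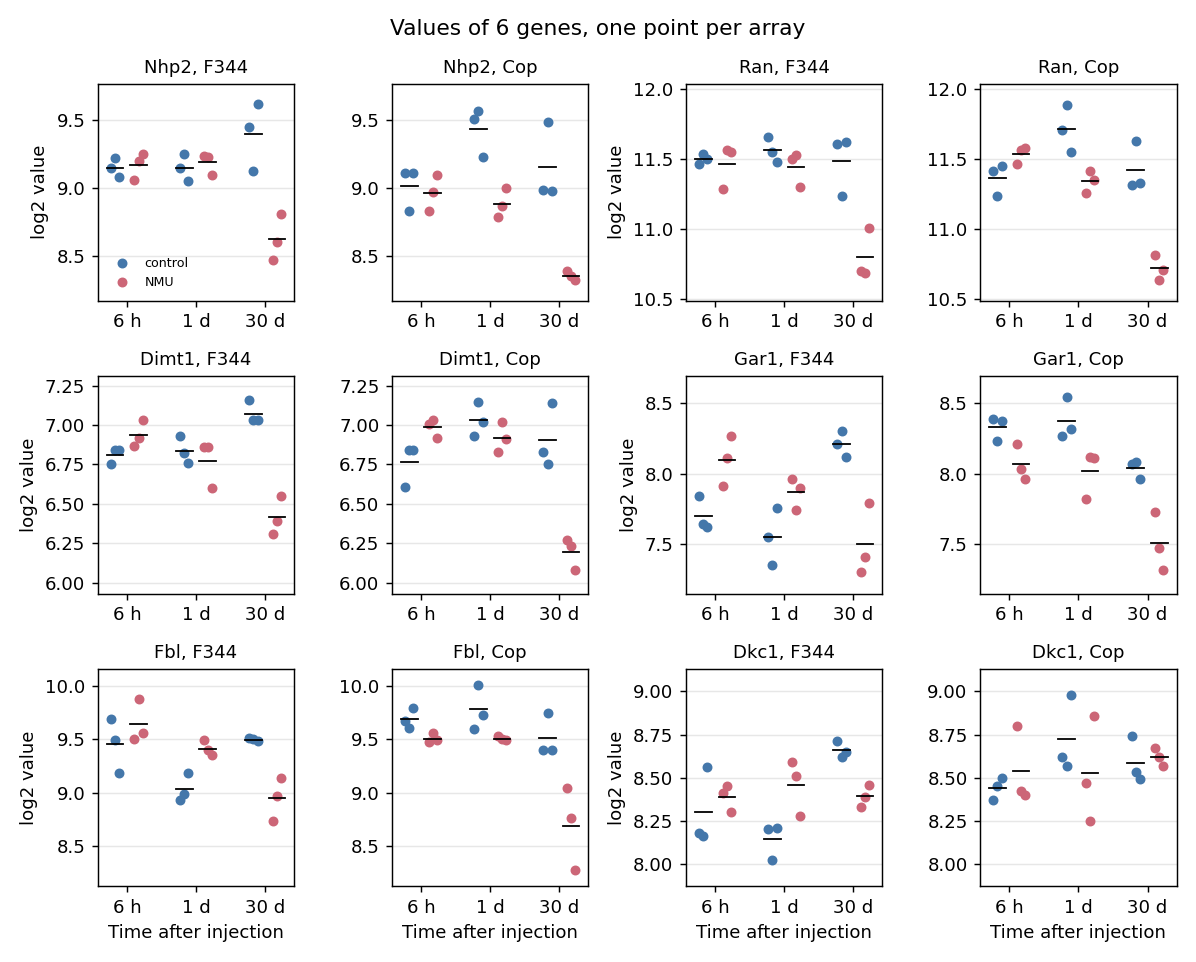
Log2 values of Nhp2, Ran, Dimt1, Gar1, Fbl and Dkc1 on every array by strain and time, with vehicle control in blue, NMU in red and lines at group means (n = 3). In both strains the NMU points at 30 d lie below all vehicle points of that time for each gene except Dkc1 in Cop, where the groups overlap.

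The 2 strains were compared directly by the difference of their NMU responses. At 30 d none of the 38 genes was called (0% of all genes were called by limma, and 1 member higher and 1 lower had an unadjusted p under 0.05), and the median difference was 0.01 with an SE per gene of 0.124 to 0.33. The largest were Alyref, 0.35 ± 0.145 less reduced in Cop, and Rcl1, -0.46 ± 0.218 (limma adjusted p = 0.999 for each). A missed threshold does not show equal responses. Across the 38 genes the 2 strains' changes had a Pearson r of 0.754 and a Spearman rho of 0.771, given as a description, since genes share arrays and are not replicates. The strains share no arrays. Of the F344 calls, 80.0% were also Cop calls, and of the Cop calls 47.1% were F344 calls. The matching overlap and correlation over all genes are not given, so neither is shown to be particular to the members.

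**Figure D4:**
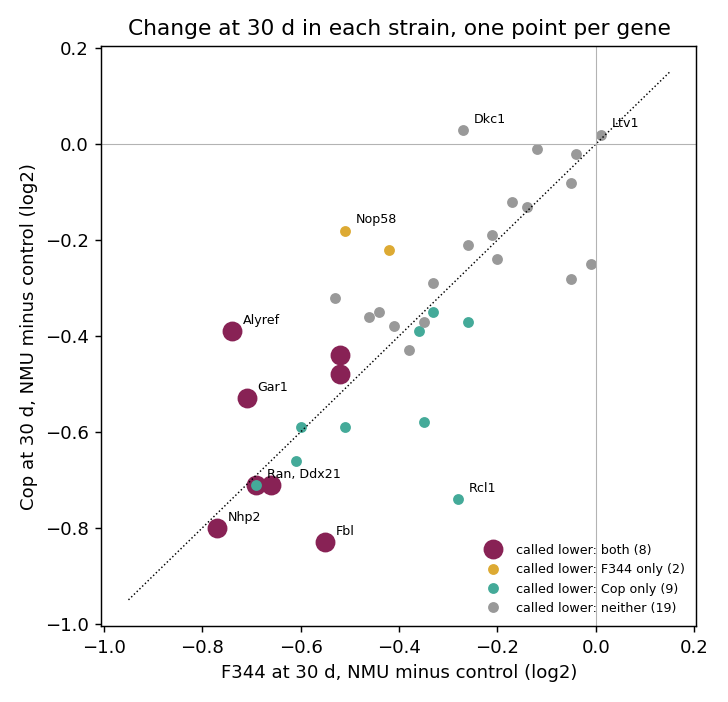
Change at 30 d (log2, NMU minus control) in F344 (horizontal) and Cop (vertical), one point per gene, coloured by the strain in which the gene was called lower; the dotted line marks equal change. Genes called in both strains have larger points, and Ran (both) lies under Ddx21 (Cop only). Of the 38 points, 36 lie below 0 on both axes, and the called points include 8 for both strains, 2 for F344 only and 9 for Cop only.

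The calls at 30 d depended on the arrays fitted. For these fits the share of all genes called is not given. The counts thus do not tell a loss of calls among the members from a loss over all genes. On the 6 compared arrays alone no member was called, and Nhp2, with the same change, had a limma adjusted p of 0.0987 in F344 and 0.315 in Cop. In F344, leaving out 1 array at a time gave 4 to 21 calls, with 5 without vehicle array 1, 4 without NMU array 1, 5 without NMU array 2 and 21 without NMU array 3. In Cop the count ran from 4 to 22, with 11 without vehicle array 1, 22 without NMU array 1, 11 without NMU array 2 and 4 without NMU array 3. Alyref, Ran, Nhp2 and Dimt1 in F344, and Fbl, Nhp2, Dimt1 and Ran in Cop, were called in 6 of 6 such fits. Without F344 vehicle arrays 1 and 3, which left 1 vehicle array, the F344 median was -0.41, with Nhp2 at -0.50, Ran at -0.44 and Gar1 at -0.80. Leaving out Cop NMU arrays 2 and 3 left 1 NMU array, that of extreme muscle score (-4.04). The Cop median was then -0.23, with Nhp2 at -0.76, Ran at -0.61, Fbl at -0.48 and Rcl1 at -0.32.

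Markers of other cell states moved with the 30 d result. Of 23 G2 and M phase genes, 17 were called lower in F344 (median -1.55) and 8 in Cop (median -0.88). Of 16 S phase genes, 12 and 9 were called lower. All 18 skeletal muscle markers were above 0 in F344 (median 3.96, none called by limma), with a score of -4.31 to -0.49 in vehicle glands and -0.32 to 1.54 in NMU glands. In Cop, 5 of 9 milk genes (median -2.08), 7 of 15 T and NK cell genes (median -1.30) and 5 of 8 B cell genes (median -1.58) were called lower, with a milk score of 0.33 to 1.64 in vehicle glands and -1.99 to -0.68 in NMU glands. In F344 all 9 milk genes were below 0 (median -1.03, 1 called). Luminal epithelial genes were below 0 for 14 of 16 in F344 (median -0.27, 1 called) and 15 of 16 in Cop (median -0.88, 2 called).

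Markers of other stromal cells went the other way. Of 10 endothelial genes, 3 were called higher in F344 (median 0.42) and 8 in Cop (median 0.70), with a score of -0.14 to 0.23 in Cop vehicle glands and 0.50 to 0.97 in Cop NMU glands. Of 10 fibroblast genes, 1 and 5 were called higher (medians 0.24 and 0.45), and of 12 adipocyte genes 1 and 2 (medians 0.37 and 0.33). The macrophage score overlapped in F344, at -0.50, 0.24 and -0.38 with vehicle and 0.06, 0.15 and 0.08 with NMU. In Cop it was 0.16, 0.10 and 0.10 with vehicle and 0.16, 0.48 and 1.03 with NMU.

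With the muscle score as a covariate, 3 members were called in F344 (Alyref, Ran and Nhp2) and the median was -0.31. With the milk score, 5 were called in F344 and 0 in Cop, where the median was -0.32. With the T, NK and B cell score, 4 were called in Cop and the median was -0.20. The share of all genes called with these covariates is not given. The part of the cell cycle, luminal, endothelial, fibroblast, adipocyte and macrophage markers in the result was not tested.

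**Figure D5:**
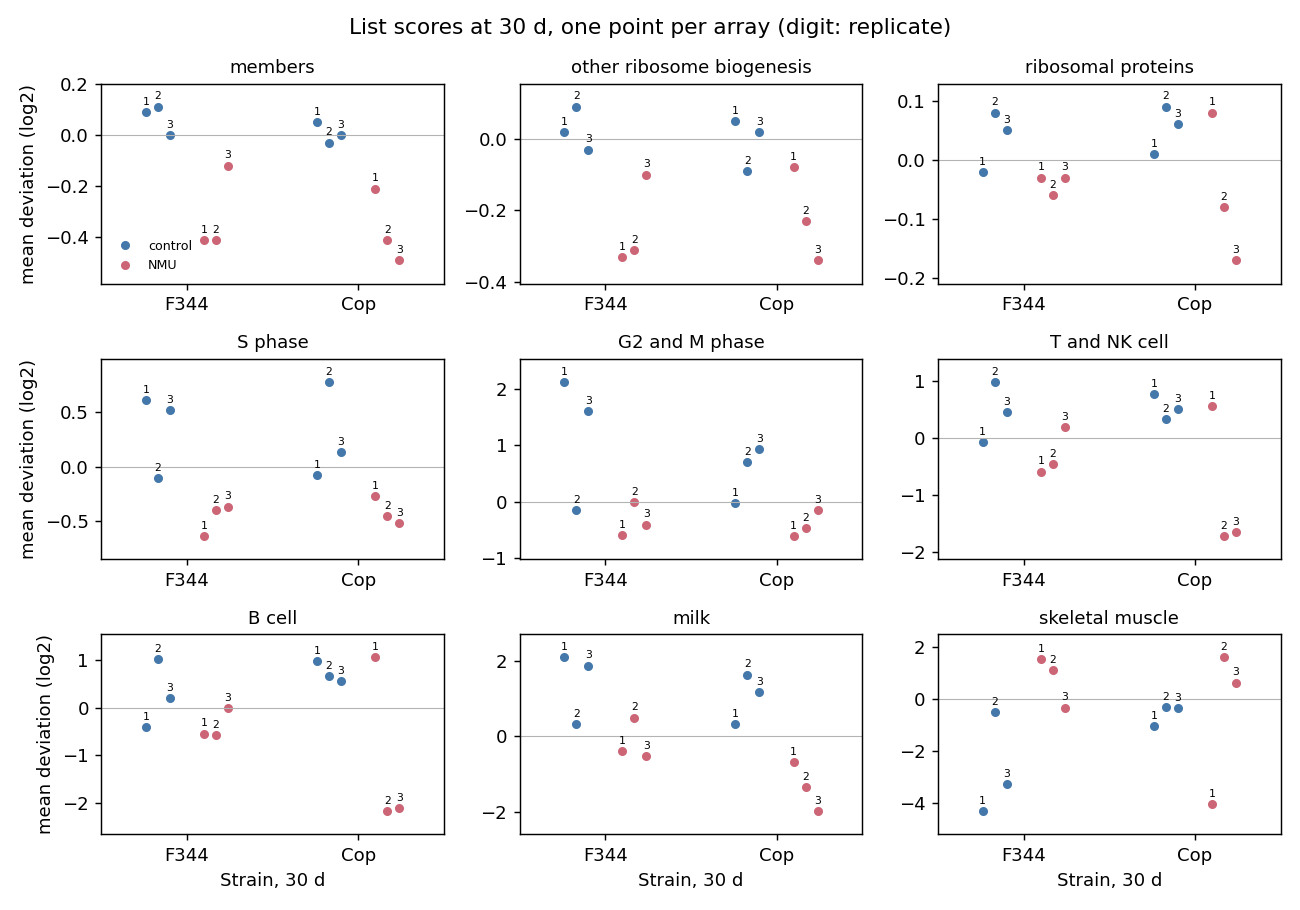
List scores (mean log2 deviation) at 30 d for the 38 genes ("members") and 8 other lists, one point per array with its replicate number, by strain, with vehicle control in blue and NMU in red. F344 vehicle arrays 1 and 3 are low for skeletal muscle (-4.31 and -3.26), as is Cop NMU array 1 (-4.04). Cop NMU arrays 2 and 3 are low for T and NK cell genes (-1.72 and -1.66), while the member score separates vehicle from NMU in both strains.

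At the early times few members were called. In F344, no member was called at 6 h or 1 d, where limma called 0.739% and 1.23% of all genes. At each time 6 members had an unadjusted p under 0.05, all of them higher. The share of all genes at that unadjusted threshold is not given, so the count of 6 has no background. The median change was 0.17 at 6 h, against 0.073 over all genes, and 0.07 at 1 d. Quantile normalization of the arrays moved the 6 h median to 0.08 and that of all genes to 0.004. The members of smallest p at 6 h were Nob1 (0.37), Gar1 (0.40) and Pes1 (0.36). Nob1 measured 7.76, 7.83 and 7.98 with vehicle and 8.06, 8.17 and 8.46 with NMU (limma adjusted p = 0.0966), with no overlap. At 6 h every NMU array was above every vehicle array for 9 of the 38 members and for 2040 of 11504 genes. The reverse held for 0 members and 919 genes. At 1 d they were Nop58 (0.44), Ebna1bp2, a factor of large subunit assembly (0.35), and Fbl (0.38), which measured 8.93, 8.99 and 9.18 with vehicle and 9.49, 9.40 and 9.35 with NMU.

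In Cop, 1 member of 38 was called at 6 h, where 3.29% of all genes were called lower, so that the count is no result about the members. This was Bop1, with 8.00, 7.86 and 7.97 in vehicle glands and 7.74, 7.63 and 7.51 in NMU glands (-0.32, limma adjusted p = 0.0423). At 1 d Bop1 and Nhp2 were called (0.452% of all genes called lower). Bop1 measured 7.86, 7.86 and 7.89 against 7.37, 7.38 and 7.51 (-0.45, limma adjusted p = 0.0169). Nhp2 measured 9.51, 9.57 and 9.23 against 8.79, 8.87 and 9.00 (-0.55, limma adjusted p = 0.0331). None of these groups overlapped, and these adjusted p come from the fit without pairing. At 6 h every NMU array was below every vehicle array for 10 members (1838 of 11504 genes) and above for 2 (2044 genes). At 1 d the NMU arrays were all below for 15 members (941 genes) and all above for 0 (945 genes). The median member change was -0.09 at 6 h and -0.19 at 1 d, when 36 of 38 changes were below 0. Fitted on the compared arrays alone, no member was called at either time.

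Deviations of same-numbered Cop arrays correlated at 0.114 to 0.435 at 6 h and 0.202 to 0.424 at 1 d, which does not show pairing. In F344 at 6 h 2 pairs also reached 0.35 and 0.507. With the replicate number as a block no member was called in Cop (limma adjusted p = 0.094 for Bop1 at 6 h, 0.0675 for Bop1 and 0.0576 for Nhp2 at 1 d). Leaving out single arrays gave 0 to 1 calls at 6 h, with none in 5 of 6 fits, and 0 to 2 at 1 d. At 1 d no member was called without vehicle array 1 or 2 or without NMU array 1 or 2, and 1 was without vehicle array 3. At 6 h, 12 of 23 G2 and M phase genes were called higher (median 1.27), 8 of 15 T and NK cell genes lower (median -1.57) and 6 of 10 fibroblast genes higher (median 0.90). With the T, NK and B cell score as a covariate Bop1 had -0.31 at 6 h (limma adjusted p = 0.144) and the median member change was 0.04. At 1 d, 9 of 23 G2 and M phase genes were called lower (median -1.31). The macrophage score at 6 h was -0.36 to 0.00 in Cop vehicle glands and 0.19 to 0.47 in Cop NMU glands. The part of the cell cycle, fibroblast and macrophage markers was not tested.

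The difference between the strains' early responses reached no call. At 6 h the median difference (Cop response minus F344 response) was -0.27, against -0.078 over all genes. Of all genes 1.11% were called, and Gar1 (-0.66 ± 0.188) had a limma adjusted p of 0.101. At 1 d the median difference was -0.29 and 0.287% of all genes were called. Alyref (-0.57 ± 0.145) had a limma adjusted p of 0.115. At an unadjusted limma p under 0.05, 8 members were lower at 6 h and 13 at 1 d. The share of all genes at that unadjusted threshold is not given, so these counts have no background.

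In vehicle glands of 6 h and 1 d together, 20 of the 38 genes were higher in Cop than in F344 and none lower (19.7% of all genes called higher by limma). The median difference was 0.25, against 0.054 over all genes, and 37 of 38 were above 0. All 3 box C/D proteins were called, with 2 of 4 box H/ACA proteins, 3 of 13 small subunit factors and 7 of 11 large subunit factors. Gar1 differed most, with 7.84, 7.64 and 7.62 at 6 h and 7.55, 7.35 and 7.76 at 1 d in F344 against 8.39, 8.23 and 8.37 and 8.27, 8.54 and 8.32 in Cop. All 6 Cop arrays were above all 6 F344 arrays, a difference of 0.72 (limma adjusted p = 1.11e-06), and the difference was 0.56 for Alyref, 0.55 for Nop58, 0.49 for Fbl, 0.41 for Ebna1bp2 and 0.36 for Nop56.

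Not every member that fell at 30 d was called here. Nhp2 differed by 0.08 between the strains' early vehicle glands, Dimt1 by 0.08 and Ran by 0.01, none of them called. Of the 20 calls, 14 held in every one of 12 fits without 1 array. Other probe sets of called genes gave 0.00 for Mrto4, 0.09 for Wdr43, 0.18 for Nop56 and 0.19 for Ddx18, none called, and another of Imp4 was called lower (-0.33). In the same comparison all 18 muscle markers were called lower in Cop (median -4.23), with a score of 1.79 to 2.85 in F344 and -3.53 to -0.80 in Cop, and 20 of 23 G2 and M phase genes were called higher. Epithelial markers were also higher in Cop, with 7 of 9 milk genes (median 1.56) and 6 of 16 luminal genes (median 0.60) called, and 11 of 12 adipocyte genes were called lower (median -0.41). The luminal score was -0.79 to -0.33 in F344 and -0.15 to 0.24 in Cop, without overlap. The part of the cell cycle, epithelial and adipocyte markers was not tested. With the muscle score as a covariate, 3 members were called, Gar1 (0.66), Alyref (0.43) and Nop58 (0.37), and the median was 0.16.

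At 30 d no member was called between the vehicle glands of the strains (2.67% of all genes called by limma, no member at an unadjusted p under 0.05, median -0.06). The same F344 and Cop vehicle arrays also enter the comparisons over time. From the mean of 6 h and 1 d to 30 d, 5 members of 38 were called higher in F344, where 16.4% of all genes were, so that the count is no result about the members. They were Nop58 (0.60), Gar1 (0.58), Dkc1 (0.44), Pes1 (0.35) and Alyref (0.31). Dkc1 measured 8.18, 8.16 and 8.56 at 6 h and 8.20, 8.02 and 8.21 at 1 d, and 8.71, 8.62 and 8.65 at 30 d, above all earlier arrays. Muscle markers fell in the same comparison (17 of 18 called, median -5.37), while 22 of 23 G2 and M phase genes (median 1.92), 15 of 16 luminal genes (median 1.23) and 8 of 9 milk genes (median 1.75) rose. The part of the cell cycle, luminal and milk markers was not tested. With the muscle score as a covariate 1 member was called, Gar1 (0.50), and the median went from 0.12 to -0.01. Without vehicle array 1 at 30 d 3 were called.

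In Cop vehicle glands 6 members were called lower over the same interval, where 6.53% of all genes were. Of these calls 0 were made on the compared arrays alone, 1 with the replicate number as a block (Ebna1bp2, limma adjusted p = 0.0367) and 3 with no filter on low values. They were Wdr75 (-0.54), Rrs1, a factor that brings a small rRNA into the large subunit (-0.50), Ltv1 (-0.47), Ebna1bp2 (-0.43), Alyref (-0.34) and Bop1 (-0.30). Alyref went from 9.60, 9.58 and 9.76 at 6 h and 9.64, 9.90 and 9.71 at 1 d to 9.33, 9.45 and 9.31, below all earlier arrays. For Wdr75 another probe set gave -0.31 and was not called. Leaving out 1 array gave 0 to 6 calls, with 3 without the 6 h array 2, 0 without the 1 d array 2, 1 without the 30 d array 2 and 2 without the 30 d array 3.

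Other genes of the pathway, from a list also drawn up with earlier results known, were set beside them. Of 111 further ribosome biogenesis genes, 13 were called lower in F344 (median -0.28) and 19 in Cop (median -0.20) at 30 d after NMU, and 62 were higher and 1 lower in Cop than in F344 early vehicle glands (median 0.27). Ruvbl1 and Ruvbl2, ATPases that help assemble snoRNPs, were called lower at 30 d in F344 (-0.54 and -0.53) and in Cop (-0.49 and -0.67). Polr1c, a subunit shared by RNA polymerases I and III, was lower in both (-0.61 and -0.44), as was Pak1ip1, a factor of the large subunit (-0.60 and -0.50). Ribosomal protein genes had smaller medians, with 2 of 45 called lower in F344 (median -0.11) and 6 of 45 in Cop (median -0.13), among them Rps3 (-0.33 and -0.37).

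Myc itself was not called after NMU at 30 d (-0.18 in F344, limma adjusted p = 0.66, and -0.05 in Cop, adjusted p = 0.915). Nor was Myc called at 6 h (0.51 in F344, limma adjusted p = 0.258, and 0.62 in Cop, adjusted p = 0.0547). At 1 d Myc had 0.17 in F344 (limma adjusted p = 0.9) and -0.51 in Cop (adjusted p = 0.287). It was higher in Cop than in F344 early vehicle glands (0.58, adjusted p = 0.00192) and rose in F344 vehicle glands to 30 d (0.89, adjusted p = 0.000223). Members with an E-box in the promoter had a median change at 30 d of -0.28 in F344 and -0.29 in Cop (13 genes), and those without one -0.51 and -0.39 (22 genes). Members with the ETS core had -0.48 and -0.36 (14 genes), and those without it -0.35 and -0.37 (21 genes). These medians are descriptions and were not tested.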

How the data were processed

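The deposited table holds the authors' log2 expression values for 31099 probe sets on 36 arrays (12 groups of 3). GCOS is named in the submitters' processing notes, without a version; the sources used here do not state the summarization or normalization. Genes were named from the platform annotation deposited for the array, and probe sets of several genes were not used. Probe sets above the 40th percentile of their array on at least 3 arrays were tested (20749), without 57 manufacturer controls, and each gene took its probe set of highest mean (11504 genes). limma 3.58.1 in R 4.3.3 was fitted to the 12 group means over all arrays (eBayes, trend and robust), two-sided, with Benjamini-Hochberg adjustment within each comparison and calls at an adjusted p under 0.05. The fit was tested on simulated data. Values per array are given for up to 6 called members of smallest p in a comparison (3 of smallest p if none), and for Dkc1, Nob1 and other examples chosen after their values were seen. Of the further genes, at most 2 called genes of smallest p per list and comparison are named. The members and all lists were chosen with earlier results of these data known. The main fit used no pairing, and a replicate block was fitted beside it. Same-numbered arrays of Cop were treated as possibly paired at 6 h (correlation of deviations 0.114 to 0.435) and 1 d (0.202 to 0.424), where all 3 pairs exceeded 0.1. Those of F344, of Cop at 30 d and between vehicle groups were not. Such a correlation does not show pairing. Single pairs also reached 0.507 in F344 at 6 h and 0.39 between F344 and Cop vehicle glands at 6 h.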

Additional observations from a re-analysis of the deposited data

How the results depend on the processing

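Fitted on the compared arrays alone, no member was called at 30 d in F344 or Cop, at 6 h or 1 d in Cop, or over time in Cop vehicle glands (0 in each). With the replicate number as a block the counts were 9 in F344 and 14 in Cop at 30 d, 0 in Cop at 6 h and 1 d, and 1 over time in Cop vehicle glands; the block did not move any other count of members by over 1.5 times. With the T, NK and B cell score as a covariate 2 were called in F344 at 6 h, 0 in Cop at 6 h and 4 in Cop at 30 d. With the muscle score 3 were called in F344 at 30 d and 0 in Cop at 6 h. With the milk score 5 were called in F344 at 30 d and 0 in Cop at 6 h and 30 d. Without a filter the counts were 0 in Cop at 6 h, 1 at 1 d and 3 over time in Cop vehicle glands. Quantile normalization gave 2 in Cop at 6 h and 8 (7 higher, 1 lower) over time in F344 vehicle glands. Leaving out 1 array gave 4 to 21 in F344 and 4 to 22 in Cop at 30 d, 0 to 1 in Cop at 6 h, 0 to 2 at 1 d, 15 to 20 between early vehicle glands, and over time 3 to 6 in F344 and 0 to 6 in Cop. Chosen after seeing the data were the muscle score in comparisons of vehicle glands (3 between early glands, 1 over time in F344) and the fits without F344 vehicle arrays 1 and 3 or without Cop NMU arrays 2 and 3 at 30 d. Each of the latter fits left 1 array in a group, so no count is given for them. Without those F344 arrays the strain difference of Nhp2 in 30 d vehicle glands, -0.25 and not called, was 0.02. The cause of these shifts, fewer arrays in a fit included, was not tested. For these alternative fits the share of all genes called is not given. Of 249 recomputed medians of the members, 240 moved by less than the spread between replicates. Part of these could not move. The block, the fit on compared arrays alone, the other eBayes options and the missing filter leave the members' group means as they were. The tally is therefore no measure of how stable the medians are.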
